A study of Mus musculus with 3 samples.

Results

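The transcripts described here encode 10 proteins with which muscle stores and uses energy, and they were taken by symbol from a list of 10 names: Ckm, Ckb, Ckmt2, Mb, Fabp3, Pvalb, Pygm, Ampd1, Phkg1 and Ppargc1a. All 10 were found among the 15403 genes analysed. They were measured by RIP-seq, in which an antibody pulls down a protein and the RNA that comes with it is sequenced. The material was extract of C2C12, mouse myoblasts in permanent culture that fuse into multinucleated muscle cells, on day 2 of differentiation, which was induced with 2% horse serum. The 3 groups differed in the antibody on the beads, with 500 µg of extract in each, and were anti-YB-1, anti-HuR and control IgG. All 3 library columns carry the ending siCtl, which no label explains, so what else the cells received is not known. There was 1 library per antibody, so no difference has a replicate check, no test was made, and every interval is an exact 95% Clopper-Pearson interval that covers counting error only.

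Intense contraction can spend ATP faster than mitochondria replace it. Creatine kinases buffer ATP from a store of phosphocreatine, glycogen phosphorylase releases glucose units from glycogen, and AMP deaminase removes the AMP left over when ADP is recycled. Myoglobin and the fatty acid binding protein Fabp3 serve the slower oxidative supply, which the coactivator PGC-1 alpha, encoded by Ppargc1a, promotes in adult muscle. YB-1 and HuR are RNA-binding proteins, and HuR is known for binding U-rich and AU-rich stretches, mostly in 3′ untranslated regions of mRNAs.

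The 3′ untranslated regions of the 10 transcripts differ in such stretches, and 6 stretches, some with many matches and some with 1, are shown because HuR is among the proteins precipitated. The search used the letters ATTTA and TTTNTTT on the sense strand of GENCODE vM21 transcripts (build GRCm38), with overlapping matches counted. Each line gives 30 bases, 5′ to 3′, with matches in capitals, TTTNTTT in the first 4 and ATTTA in the last 2.
Fabp3: tatgtatgtggTTTATTTtttaaaactgta
Pvalb: tggcaagTTTTTTTTCTTTCTTTttagggc
Phkg1: gttttcttgTTTTTTTTTTTaagatttatg
Ppargc1a: tcctttcaTTTTTTTTTTTTTacttctttt
Ckm: cccatgcctgtcATTTActtggataatgat
Ppargc1a: tATTTAtcagttgcagatagcctATTTAtt

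These stretches lie at chr4:130315388-130315417 (plus strand) for Fabp3, chr15:78191407-78191436 (minus) for Pvalb and chr5:129863944-129863973 (minus) for Phkg1. Those of Ppargc1a lie at chr5:51455016-51455045 and chr5:51456232-51456261 (minus), and that of Ckm at chr7:19422173-19422202 (plus). All are in the last exon. The 3′ untranslated region of Ppargc1a is the longest, with 3930 bases, 9 ATTTA matches and 27 TTTNTTT matches. Among 682 3′ untranslated regions within 10% of that length, 98.1% hold TTTNTTT and 12.6% hold it as many times. Pvalb has 5 TTTNTTT matches in 552 bases, where 51.9% of regions of like length hold any and 8.97% as many. Phkg1 has 5 in 1020 bases (72.8% and 24.1%), Fabp3 1 in 238 (28.5% hold any) and Ckm 1 in 1455 (83.2% hold any). ATTTA occurs in 84.5% of regions of the length of Ckm, 75.9% of those of the length of Phkg1, which has 2, and 98.4% of those of the length of Ppargc1a. Neither motif was matched in Mb, Pygm, Ckmt2 or Ampd1, whose regions measure 435, 265, 142 and 22 bases. A match is a run of letters and not a measured binding site.

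The libraries held 10630155 (IgG), 39112714 (YB-1) and 24797504 (HuR) reads. Levels are normalized counts, which are reads divided by the authors' size factor of each library, so that 1 read was worth 2.29 normalized counts in IgG, 0.531 with YB-1 and 0.862 with HuR. The IgG library stood apart: 1516 of the 15403 genes analysed were at least 8-fold higher in it than in both others. They held 20.8% of its reads. Of the 10 transcripts, 7 are among them (Ckmt2, Mb, Fabp3, Pvalb, Ampd1, Phkg1 and Ppargc1a). Ratios move with the scaling between libraries. Of all genes at least 2-fold apart between YB-1 and IgG, 34.1% were higher in YB-1 on the authors' scaling, against 3.87% after recentring on ribosomal protein genes, which shifted all genes by -1.13 (log2), and 44.6% scaled to total reads. For HuR over IgG that share was 37.8%, against 21.7% after the same recentring (a shift of -0.49), and for HuR over YB-1 it was 64.4%, against 90.0% (a shift of 0.69).

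The markers of muscle cells in culture were present in the 3 libraries. Of 9 myotube markers, 7 exceeded IgG by 2-fold or more with YB-1 (1 after the recentring on ribosomal protein genes) and 1, Acta1, was lower, with a summed level of 934716 normalized counts in IgG, 792727 with YB-1 and 769516 with HuR. Markers of adult slow fibres summed to 772335 in IgG, 169808 with YB-1 and 105031 with HuR, with 6 of 8 lowered by 2-fold or more with YB-1 and 7 of 8 with HuR. Markers of adult fast fibres summed to 781548, 246857 and 144771, with 6 of 8 at least 2-fold lower in each antibody library and 1, Actn3, higher with YB-1 (1.38 on the log2 scale, or 0.25 after the recentring). Markers of cell types other than muscle moved the same way. All 10 endothelial markers were at least 2-fold lower in both antibody libraries and summed to 13796 in IgG, 36.1 with YB-1 and 2.59 with HuR, where 8 of them had 0 reads. All 6 adipocyte markers, Adipoq and Plin1 among them, were without a read in the antibody libraries (0 each), against 684 in IgG. The 6 blood markers matched had 256 reads in IgG, 29 in YB-1, all of Cd68, and 0 in HuR. The 5 neural markers had 500, 0 and 0, and the 4 liver markers 146, 0 and 2. Heart markers did not follow this direction: of 4 with a ratio, 3 (Myh6, Nppb and Gata4) were at least 2-fold higher in both antibody libraries (1 with YB-1 and 2 with HuR after the recentring), and Nppa had 1 read in IgG and 0 in both others. The labels describe C2C12 extract in the same terms for the 3 libraries. Whether the IgG library, with this RNA in it, was made from the same material as the others was not tested. Each ratio over IgG below therefore compares 2 libraries that may differ in more than the antibody. The part of these RNAs in the results was not tested, and fewer cells of a type cannot be told apart from less RNA per cell in any of the libraries.

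The comparisons with IgG were designed to ask which mRNAs come with YB-1 or with HuR, and their values carry that limit. In both, 9 of the 10 transcripts were at least 2-fold lower with the antibody than with IgG, and Ckb was the exception. Ckmt2 and Phkg1, counted in the 9 and in the medians below, passed the minimum mean of 10 only through their IgG level. They could therefore not have been called higher with an antibody. Ckb exceeded IgG by 2-fold or more in the YB-1 library and by 1.47-fold in the HuR library. Among all 13022 genes with a ratio of YB-1 over IgG, 32.8% were lower and 17.0% higher by 2-fold or more. For HuR over IgG, 31.1% of 13024 were lower and 18.9% higher. The median log2 ratio of the 10 was -5.91 for YB-1 over IgG, against -0.17 for all genes, and -4.52 for HuR over IgG, against -0.16. Both comparisons use the same IgG library, so their values stand side by side and are not separate evidence.

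**Figure D1:**
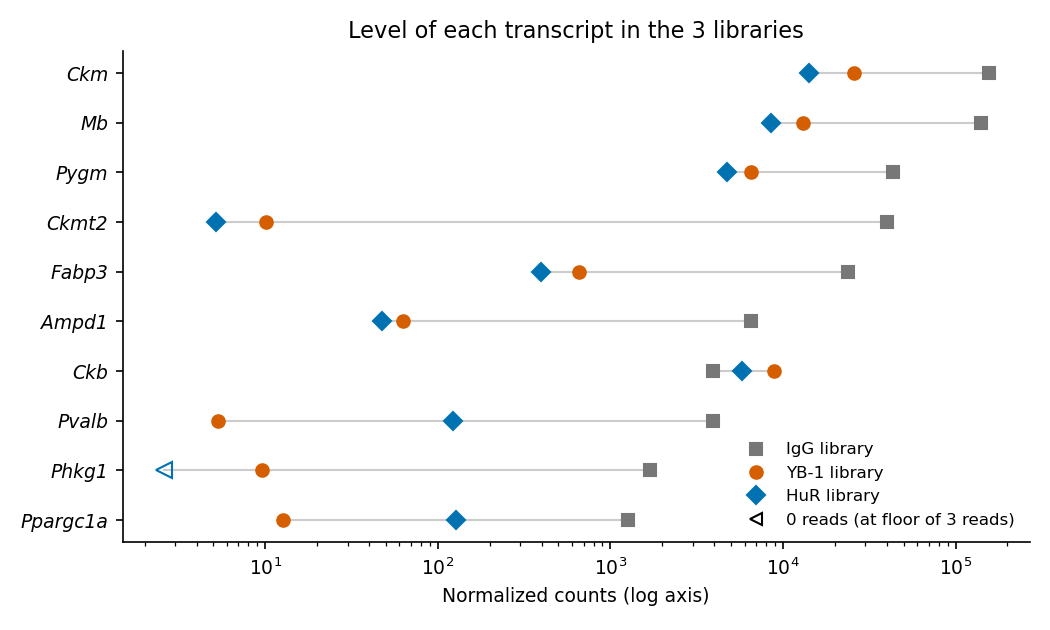
Normalized counts (log axis) of the 10 transcripts in the IgG (grey squares), YB-1 (orange circles) and HuR (blue diamonds) libraries, 1 library each; the open triangle marks Phkg1 in HuR, with 0 reads, drawn at the floor of 3 reads. For 9 transcripts the grey square lies farthest right, while Ckb runs from 3931 in IgG to 8820.4 in YB-1.

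The creatine kinases were split. Ckm, the cytosolic muscle enzyme, stood at 155258 normalized counts in IgG, 25763 with YB-1 and 14104 with HuR. It was high in every library, ranking 17th of 13832 genes per kilobase of transcript in IgG, 173rd with YB-1 and 292nd with HuR. From IgG to YB-1 it was 6.03-fold lower (95% interval 5.96 to 6.10) and 11.0-fold lower in HuR (10.8 to 11.2). Ckm lies on chromosome 7 from 19404776 to 19422841. Its exons overlap those of A930016O22Rik, on the other strand, which had 86 reads in IgG, 43 with YB-1 and 1 with HuR. Ckm had 67660, 48489 and 16360. Ckb, the brain-type cytosolic enzyme, which is made in many tissues, stood at 3931 in IgG, 8820.4 with YB-1 and 5783 with HuR, so it was lowest in IgG. From IgG to YB-1 it was 2.24-fold higher (2.13 to 2.36) and 1.47-fold higher in HuR (1.39 to 1.55). On the log2 scale, YB-1 over IgG was 1.17 for Ckb, and 0.04 after recentring on ribosomal protein genes, so the size of this difference rests on the scaling. Of 1423 stretches of 50 bases in the Ckb transcript, 312 also occur in pseudogene transcripts such as Ckb-ps1, and how such reads were counted is not given in the sources used here.

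Ckmt2 encodes the sarcomeric mitochondrial creatine kinase, which turns mitochondrial ATP into phosphocreatine. It had 17411 reads in IgG, 19 with YB-1 and 6 with HuR, or 39953, 10.1 and 5.17 normalized counts. It was nearly restricted to the IgG library. It was 3958-fold lower with YB-1 than with IgG (2534 to 6575) and 7724-fold lower with HuR (3548 to 21050.3). With YB-1 this was the lowest ratio of the 10; with HuR its interval overlapped the bound of Phkg1. Its own included, 26 of 13022 ratios of YB-1 over IgG were that low or lower. No stretch of 50 bases in its transcript (chromosome 13, 91853387 to 91876885) occurs in a transcript of another gene. Its exons do overlap those of 1700119I11Rik, on the other strand. Its partner Ckmt1, the ubiquitous mitochondrial enzyme, had 3 reads in IgG and 0 in both others, too few for a ratio.

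Mb encodes myoglobin, the oxygen store of muscle. It stood at 140434 normalized counts in IgG, 13134 with YB-1 and 8556 with HuR. Per kilobase of transcript, it was the 4th highest of 13832 genes in IgG, the 141st in YB-1 and the 198th in HuR, so it was an abundant transcript in each. It was 10.7-fold lower with YB-1 than with IgG (10.5 to 10.9) and 16.4-fold lower in HuR (16.1 to 16.8). An exon of Apol6, on the other strand, overlaps Mb (chromosome 15, 77015487 to 77050670), and Apol6 had 881, 121 and 58 reads in the 3 libraries, far below the 61200, 24720 and 9925 of Mb.

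Pvalb encodes parvalbumin, a calcium buffer of fast fibres. Its level was 3922 in IgG, 5.31 with YB-1 and 122 with HuR, from 1709, 10 and 142 reads. Its level with HuR lay between those of the other libraries. It was 738-fold lower with YB-1 than with IgG (400.4 to 1542) and 32.0-fold lower in HuR (27.0 to 38.3). U-rich runs printed above lie in its 3′ untranslated region and in those of Fabp3, Phkg1 and Ppargc1a.

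The glycogen genes were lower in both antibody libraries. Pygm, muscle glycogen phosphorylase, stood at 43656 in IgG, 6499.6 with YB-1 and 4766 with HuR. It was 6.72-fold lower with YB-1 than with IgG (6.57 to 6.87) and 9.16-fold lower in HuR (8.89 to 9.44). Phkg1 encodes the catalytic subunit of the kinase that switches phosphorylase on in muscle. It had 741 reads in IgG, 18 with YB-1 and 0 with HuR, or 1700.35, 9.56 and 0 normalized counts. It was 178-fold lower in YB-1 (112 to 302) and at least 657-fold lower in HuR, with the HuR library set to a floor of 3 reads, or 2.59 normalized counts. Exons of Sumf2, on the other strand, overlap Phkg1 (chromosome 5, 129863421 to 129898549), and Sumf2 was highest in YB-1, with 110 reads in IgG, 1307 with YB-1 and 408 with HuR. Whether reads were counted by strand is not given in the sources used here, so reads of the 2 genes cannot be told apart with certainty. Of 2325 stretches of 50 bases in the Phkg1 transcript, 69 also occur in transcripts of other genes.

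Fabp3, the heart-type fatty acid binding protein that carries fatty acids towards oxidation, stood at 23931 in IgG, 658 with YB-1 and 397 with HuR. It was 36.4-fold lower in YB-1 (34.3 to 38.6) and 60.2-fold lower in HuR (54.8 to 66.2). Of its 774 stretches of 50 bases, 226 also occur in the pseudogene transcript Fabp3-ps1. Exons of Zcchc17, on the other strand, overlap Fabp3 as well, and Zcchc17 had 439 reads in IgG, 1608 with YB-1 and 924 with HuR, against 10429, 1239 and 461 for Fabp3. Ampd1, the muscle AMP deaminase, stood at 6521 in IgG, 63.2 with YB-1 and 47.4 with HuR. It was 103-fold lower in YB-1 (85.8 to 125) and 138-fold lower in HuR (105 to 183), and its 2 antibody libraries were close to each other. Ppargc1a had 554 reads in IgG, 24 with YB-1 and 147 with HuR, or 1271, 12.8 and 127 normalized counts. It was 99.7-fold lower with YB-1 than with IgG (66.3 to 157) and 10.03-fold lower in HuR (8.35 to 12.1), so HuR lay between the other libraries, as for Pvalb.

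Ordered by YB-1 over IgG, the transcripts ran from Ckmt2 through Pvalb, Phkg1, Ampd1, Ppargc1a, Fabp3, Mb, Pygm and Ckm to Ckb. Counting intervals of neighbours overlapped between Phkg1 and Ampd1 and between Ampd1 and Ppargc1a, so these are not ordered beyond counting error. By HuR over IgG the order was Ckmt2, Phkg1, Ampd1, Fabp3, Pvalb, Mb, Ckm, Ppargc1a, Pygm and Ckb, with overlap between Ckmt2 and Phkg1, between Ckm and Ppargc1a and between Ppargc1a and Pygm. Per kilobase, the highest levels of the 10 in the YB-1 library were those of Mb (11897 normalized counts), Ckm (9396), Ckb (5992) and Pygm (2262), and in the HuR library the order was the same (7750.2, 5144, 3929 and 1658). Fabp3 came next in both, at 799.9 and 483, and Ppargc1a, at 1.97 and 19.6, was among the lowest. Together the 10 took 1.73% of the reads analysed in IgG, 0.265% with YB-1 and 0.159% with HuR.

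In the authors' deposited table, which compares YB-1 with IgG by DESeq2, the adjusted p of each of the 10 was 0.845, and 0 of 15403 genes passed 0.05. The authors' deposited table gives 213 genes an unadjusted p under 0.05, among them Pvalb (0.0335), Fabp3 (0.0272), Ppargc1a (0.0273) and Ampd1 (0.0250). With 1 library per antibody these p-values hold no spread between replicates. The moderated log2 fold changes in the authors' deposited table were -2.45 for Fabp3 and Ppargc1a and -2.44 for Ampd1, each with a standard error between 1.09 and 1.11, but -0.68 for Ckmt2 and -0.51 for Phkg1. In the authors' deposited table the order therefore differs from that of the unmoderated ratios, and Ckmt2, lowest without moderation, comes 8th of the 10.

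**Figure D2:**
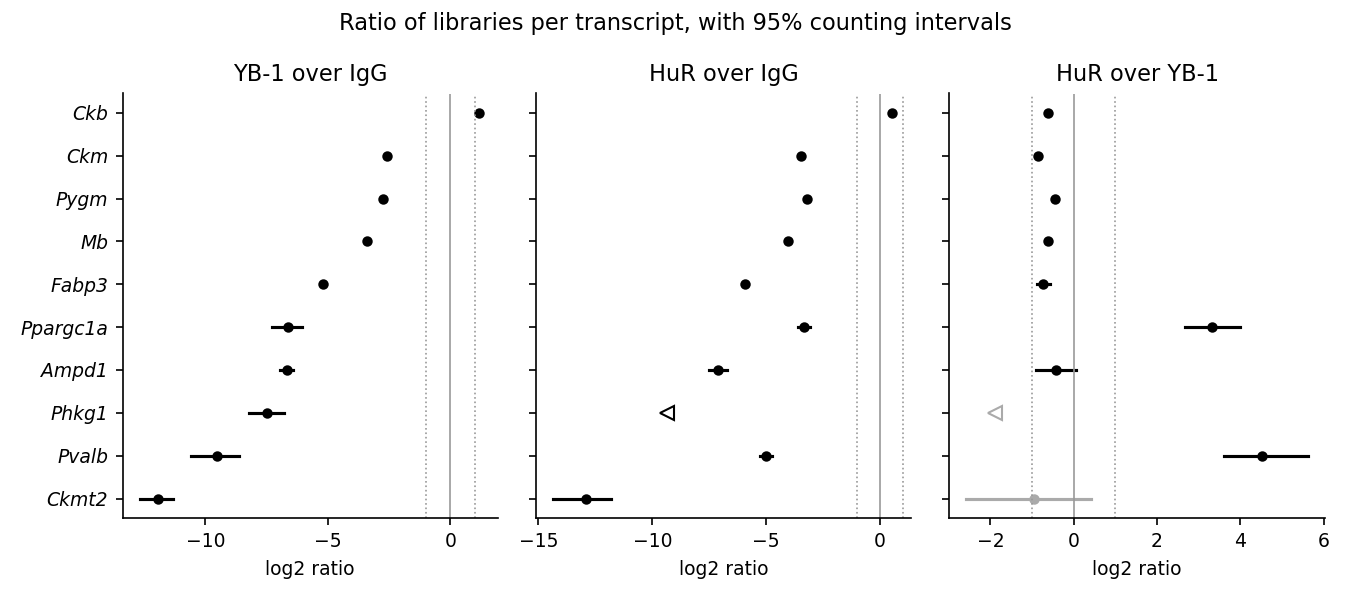
Log2 ratio of libraries (x axis) for each transcript, with exact 95% counting intervals as bars, some narrower than the point; dotted lines mark a fold of 2, the open triangle an upper bound, and grey a transcript under the minimum mean level of 10. In the 2 panels against IgG only Ckb lies right of 0, and in HuR over YB-1 Pvalb (4.53) and Ppargc1a (3.31) stand apart from the rest.

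Setting HuR against YB-1 leaves the IgG reads aside, although the authors' scaling was made over the 3 libraries together. Pvalb and Ppargc1a were higher in the HuR library, and the other transcripts with enough reads were within 2-fold of each other in the 2 libraries. Of the 10, 8 had a mean of at least 10 normalized counts over YB-1 and HuR, and of these HuR exceeded YB-1 by 2-fold or more in 2 and was below it by as much in 0. Among 11868 genes, 19.3% were that much higher and 10.6% that much lower, so the count of 2 in 8 is near the background. Pvalb was 23.0-fold higher in HuR than in YB-1 (12.2 to 49.1), and 90 of 11868 genes had a ratio at or above it. Ppargc1a was 9.94-fold higher (6.43 to 16.0), with 268 genes at or above it, and its interval overlapped that of Pvalb. Both rest on few reads in the YB-1 library, 10 and 24.

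The other 6 were lower in HuR than in YB-1 on the authors' scaling. Their log2 ratios were -0.87 for Ckm, -0.73 for Fabp3, -0.62 for Mb, -0.61 for Ckb, -0.45 for Pygm and -0.42 for Ampd1, beside a median of -0.06 for all genes. After recentring on ribosomal protein genes those of Mb, Ckb, Pygm and Ampd1 turned positive (0.07, 0.08, 0.25 and 0.28), so their direction is set by the scaling. Those of Fabp3 and Ckm shrank to -0.03 and -0.18, so their size rests on the scaling as well. The interval of Ampd1 reached from 0.535 to 1.04 as a ratio and thus included no difference. Ckmt2 and Phkg1 were under the minimum, with 19 and 18 reads in YB-1 against 6 and 0 in HuR.

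The number of TTTNTTT matches was set beside the ratio over all genes, not over the list. Counted were genes that passed the minimum mean and have an annotated 3′ untranslated region. Among these genes, 5.29% of 3498 with no match were at least 2-fold higher in HuR than in YB-1. The share was 10.3% of 3501 with 1 to 4 matches, 35.8% of 3339 with 5 to 24 and 58.4% of 543 with 25 or more. The median length of the 3′ untranslated region was 369 bases in the first class and 4043 in the last, so motif number and length cannot be told apart here. Pvalb, with 5 matches, and Ppargc1a, with 27, belong to the last 2 classes. Phkg1, also with 5, was under the minimum mean and is not counted in a class. Phkg1 was not higher in HuR, with 18 reads in YB-1 and 0 in HuR. A relation between matches and ratio was not tested among the 10, and the motif counts given here leave out Ckb.

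**Figure D3:**
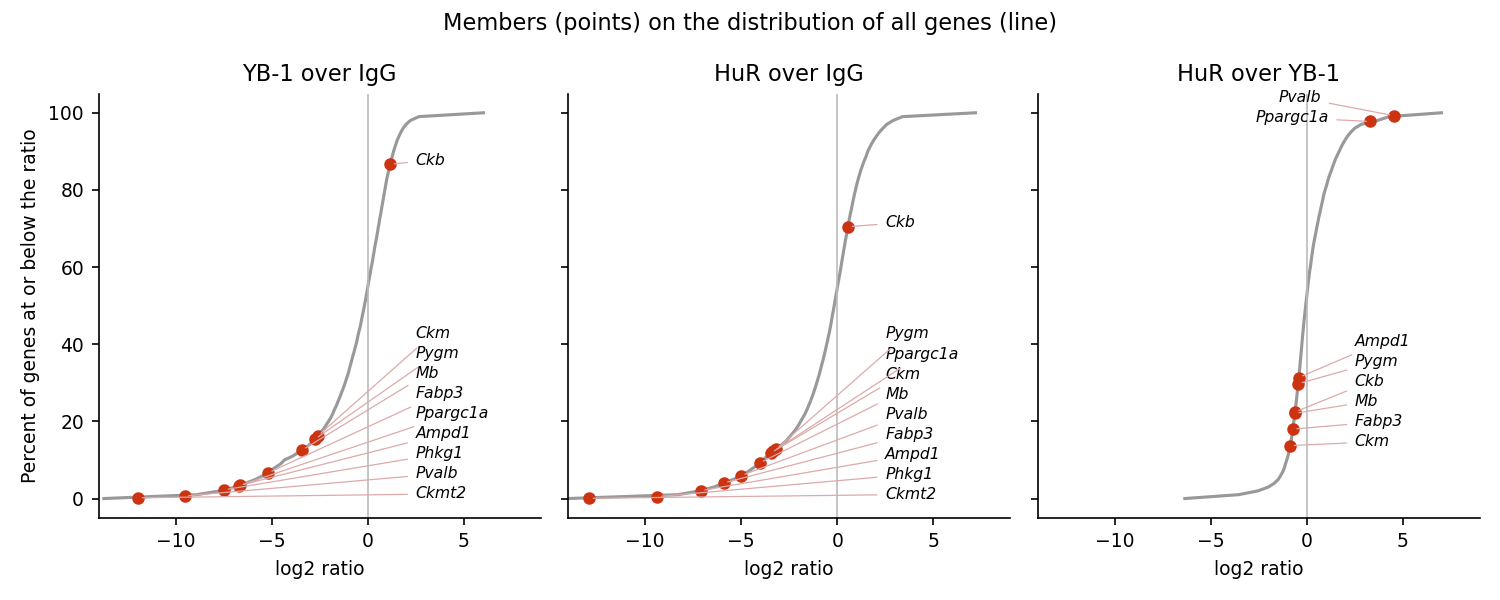
Percent of all genes tested (y axis) at or below each log2 ratio (x axis), as a grey line, with the transcripts of the list that passed the minimum mean level as red points. Against IgG, 9 red points lie in the lowest 17% of genes and Ckb lies at 86.7% for YB-1 and 70.5% for HuR; for HuR over YB-1, Pvalb and Ppargc1a lie at 99.3% and 97.8%.

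Ratios between isoforms inside 1 library do not depend on the scaling between libraries. They are given per length, as reads divided by the length of the main GENCODE transcript, and would change with another choice of transcript. In each library Ckm exceeded Ckb, but by 21.2-fold in IgG (20.2 to 22.3), 1.57-fold with YB-1 (1.54 to 1.60) and 1.31-fold with HuR (1.27 to 1.35). Ckm made up 95.5% of this pair in IgG, 61.1% with YB-1 and 56.7% with HuR. Pygm outweighed the brain isoform Pygb in each library as well, with 99.1% of the pair in IgG, 92.8% with YB-1 and 94.8% with HuR. The liver isoform Pygl had 52 reads in IgG and 0 in both others.

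The order of the AMP deaminases turned over. Ampd1 made up 97.1% of the pair with Ampd2, the form found in many tissues, in IgG (96.5 to 97.6), but 16.8% with YB-1 (14.2 to 19.6) and 12.8% with HuR (9.85 to 16.2). Against Ampd3 its share was 87.9%, 20.0% and 16.2%. Phkg1 behaved alike against Phkg2, the catalytic subunit best known from liver, with 89.97% of the pair (IgG), 7.16% (YB-1) and 0% (HuR), where 0 of 76 reads allows up to 3.71%. Fabp3 made up 98.6% of its pair with Fabp5, the epidermal form, in IgG, 52.6% with YB-1 and 40.5% with HuR. Against Fabp4, the form typical of adipocytes, which had 2347 reads in IgG, 2 with YB-1 and 12 with HuR, the share of Fabp3 was instead lowest in IgG, at 82.9%.

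Ppargc1a and its relatives Ppargc1b and Pprc1 encode coactivators of the same family. Ppargc1a made up 51.6% of the pair with Ppargc1b in IgG (48.0 to 55.2), 1.95% with YB-1 (1.25 to 2.90) and 23.3% with HuR (19.8 to 27.2). With Pprc1 its share was 53.2%, 0.881% and 8.995%. In the antibody libraries the partners named here therefore outweighed Ampd1, Phkg1 and Ppargc1a, whereas Ckm and Pygm stayed the larger of their pairs with Ckb and Pygb. Fabp5 outweighed Fabp3 with HuR but not with YB-1.

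**Figure D4:**
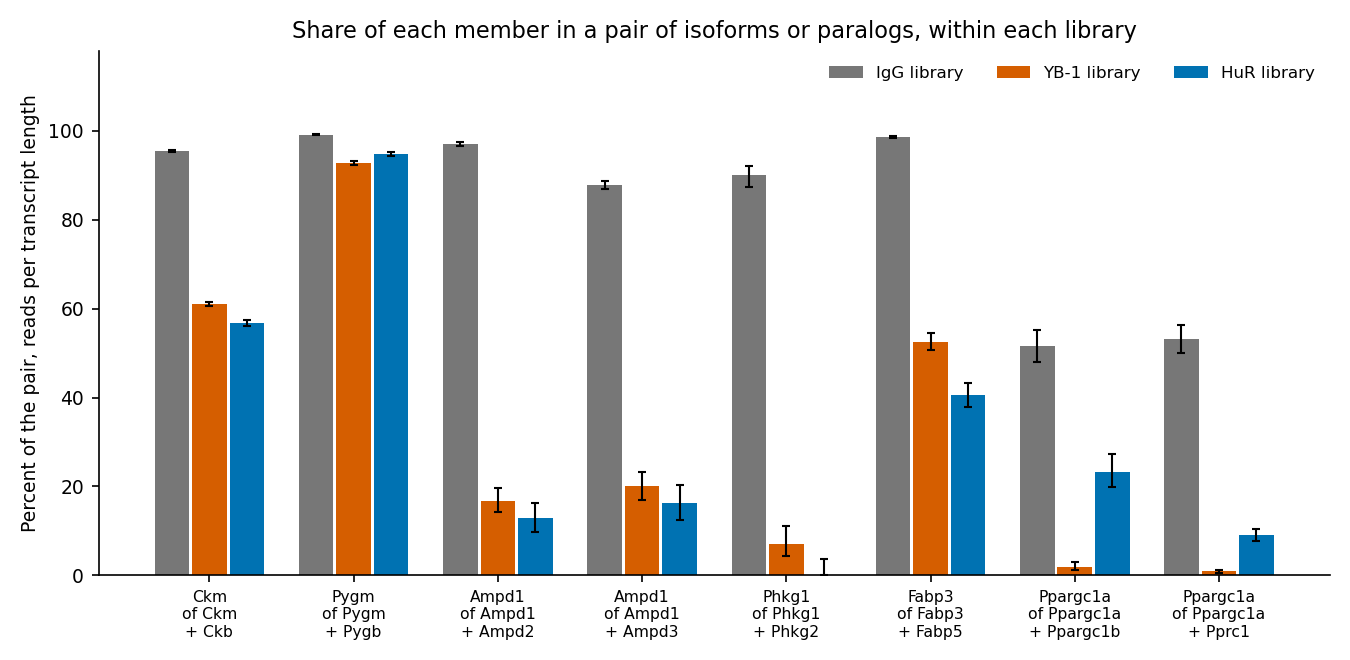
Percent of a pair of isoforms or paralogs held by the first gene (y axis, reads per transcript length), in the IgG (grey), YB-1 (orange) and HuR (blue) libraries; bars start at 0 and whiskers are exact 95% counting intervals. The grey bar is the highest in each of the 8 pairs shown, and for Ampd1 and Phkg1 it stands at 87.9% or more, against 20.0% or less in both antibody libraries. Pairs not drawn went the other way, with the lowest share in IgG. Ckm made up 67.8% of its pair with Ckmt2 in IgG, against 99.9% in both antibody libraries. Fabp3 with Fabp4, Pygm with Pygl and Ckmt2 with Ckmt1 were also lowest in IgG, at 82.9%, 99.7% and 99.98%.

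Other genes of the same pathways were read from 5 lists. After each scaling run, the medians of 4 of them stayed below 0 in both comparisons with IgG; the creatine and adenylate list is the exception. Of 25 genes of fatty acid uptake and oxidation, 22 were lower by 2-fold or more with YB-1 than with IgG and 0 higher, with a median log2 ratio of -2.28 beside -0.17 for all genes, and for HuR the counts were 23 and 0 with a median of -2.44. Lpl, lipoprotein lipase, which had the highest mean normalized count of them, stood at 48936 in IgG, 68.0 with YB-1 and 147 with HuR. Fabp4 had the lowest ratio of YB-1 over IgG, and Fabp5 the highest, at 0.80, or -0.33 after the recentring on ribosomal protein genes. Of 24 glycogen genes, 16 were at least 2-fold lower and 1 higher in YB-1, and 18 and 2 in HuR, with medians of -2.61 and -2.75. Ugp2, which makes the UDP-glucose that feeds glycogen synthesis, stood at 22043 in IgG, 1977 with YB-1 and 3236 with HuR. Ppp1r3a, the muscle glycogen-targeting subunit of protein phosphatase 1, had 2123 reads (IgG), 1 (YB-1) and 2 (HuR). With YB-1 it was 9169-fold lower, with an interval from 1644 to 362321. Stbd1, which tethers glycogen to membranes, had the highest ratio, at 1.16, or 0.03 after the recentring on ribosomal protein genes.

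The creatine and adenylate list was mixed. Of 20 genes, 8 were lower and 7 higher by 2-fold or more with YB-1 than with IgG, with a median of -0.27, and for HuR the counts were 9 and 3 with a median of -0.14, or 0.05 scaled to total reads. After recentring on ribosomal protein genes the counts for YB-1 were 10 and 0. Without Ckm, Ckb, Ckmt2 and Ampd1 the 16 other genes had medians of 0.19 for YB-1 and 0.10 for HuR on the authors' scaling, so the list without them had no direction beyond what scaling sets. Gatm, the first enzyme of creatine synthesis, stood at 913 in IgG, 3777 with YB-1 and 18075 with HuR, the highest log2 ratios of the list (2.05 and 4.31). Ak1, the cytosolic adenylate kinase of muscle, stood at 18530 (IgG), 8422 (YB-1) and 17316 (HuR). Oxygen and calcium storage genes were mostly lower with the antibodies: of 15 listed, 12 were matched and 11 had a ratio, and of these 9 were at least 2-fold lower and 0 higher in each, with medians of -2.80 and -3.58. The calcium pump mRNAs Atp2a1 and Atp2a2 were at -2.80 and -3.68 with YB-1 on the log2 scale, and Casq2, the cardiac and slow-muscle calsequestrin, had the highest, at 0.22, or -0.90 after the recentring on ribosomal protein genes.

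Among 22 genes of the PGC-1 list, 13 were lower by 2-fold or more and 0 higher with YB-1 than with IgG, and 12 and 2 with HuR, with medians of -1.57 and -1.13. Esrrg, an estrogen-related receptor that works with PGC-1 alpha, was close to absent with both antibodies, with 1582 reads in IgG and 1 in each of them. Prkaa2 and Prkaa1 encode the catalytic subunits of AMP-activated kinase. With YB-1 their log2 ratios over IgG were -4.31 for Prkaa2 and -0.02 for Prkaa1, and with HuR -4.16 and 1.72. Crtc2, a CREB coactivator, had the highest ratio in YB-1, at 0.51, or -0.61 after the recentring. For HuR over YB-1 the median of this list was 0.25. HuR was the higher by 2-fold or more in 5 of 19 genes, beside 19.3% of all genes, and the lower in 1, Sirt3, which was named after its value of -3.29 was seen.

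**Figure D5:**
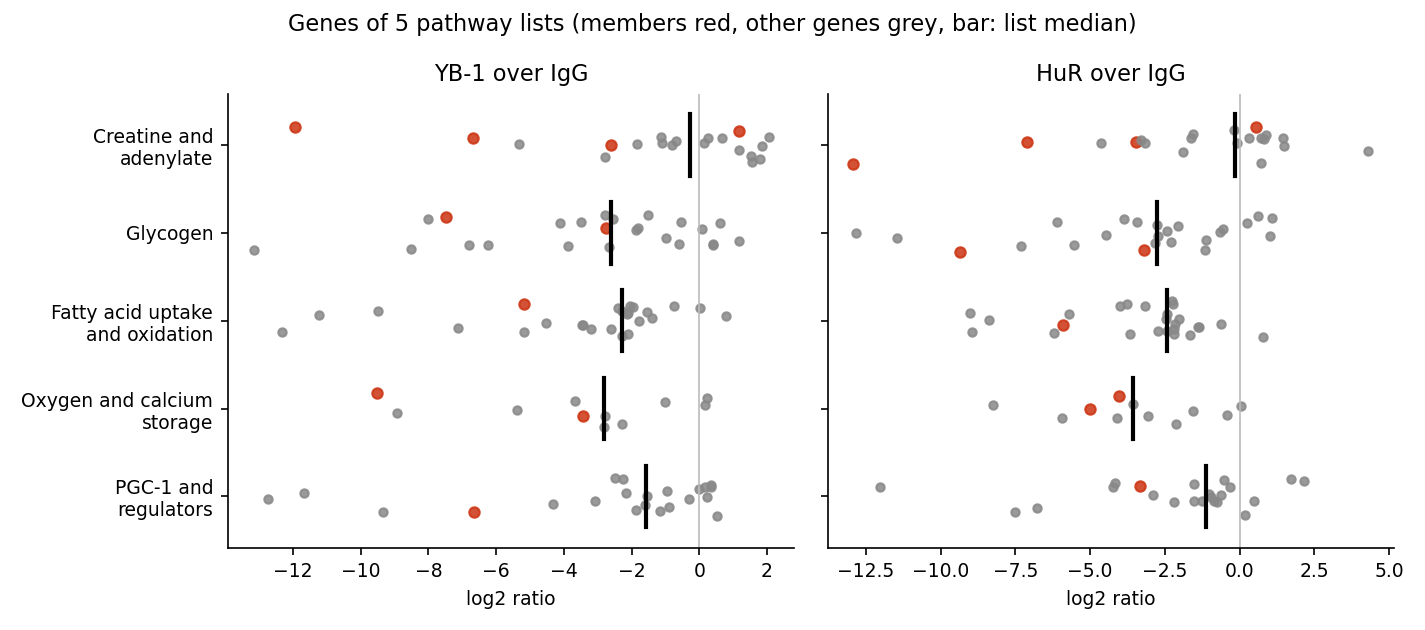
Log2 ratio over IgG (x axis) of each gene of the 5 lists in the YB-1 library (left) and the HuR library (right), with the 10 transcripts in red, other genes in grey and the list median as a black bar. The medians of the glycogen, fatty acid, oxygen and calcium, and PGC-1 lists lie between -1.13 and -3.58, and the creatine and adenylate list straddles 0, with Gatm at 4.31 in HuR.

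By distance in the plane of the 2 log2 ratios over IgG, over 3 libraries and 11153 genes with a mean of at least 50, the genes nearest to Ckm were Pla2g12a, Chac2 and Pde4a, at distances from 0.02 to 0.09. Those nearest to Mb were Etfdh, Cyfip2 and Kif13b (0.03 to 0.10), and those nearest to Pygm were Tet2, Osbpl6 and Coq10a (0.03 to 0.11). Etfdh passes electrons from fatty acid oxidation to the respiratory chain. Per kilobase Etfdh stood at 2378 normalized counts in IgG, 220.2 with YB-1 and 147 with HuR. These levels are far below the 127205, 11897 and 7750.2 of Mb. Its ratios are like those of Mb because it was picked by them. Whether the nearest genes share functions with Ckm, Mb or Pygm was not tested. Myog, which encodes the differentiation factor myogenin, went the other way from Ckm, Mb and Pygm, with 13754 in IgG, 45679 with YB-1 and 229849 with HuR. The log2 ratio of Myog for YB-1 over IgG was 1.73, or 0.60 after the recentring on ribosomal protein genes.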

How the data were processed

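RNA from 3 immunoprecipitations (YB-1, HuR, IgG; 1 library each) was read from the deposited table. The submitters' processing notes name DESeq2, HTSeq 0.6.1 and TopHat2 2.0.10, and the builds mm10 and GRCm38; no parameter or strand setting is given. The deposited normalized signal is each read count over the library's size factor, and baseMean is the mean of the 3. The deposited log2 fold changes (moderated and unmoderated) with their standard errors, the Wald score, and the p-values and adjusted p-values compare YB-1 with IgG. Whole reads were recovered for 100% of values within 0.01 read. No count model was fitted here, since 1 library per antibody gives no spread between replicates.

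Of 15428 rows, 25 with a date in place of a symbol were left out (0.123% to 0.304% of reads). Log2 ratios are unmoderated, with a library at 0 set to 3 reads, no ratio where both libraries had 3 reads or fewer, and a minimum mean of 10 over the 3 libraries, or over YB-1 and HuR for their comparison. Being at least 2-fold apart is a size, not a test. Ratios were checked on simulated data. Sequences, lengths and positions come from GENCODE vM21 (GRCm38; the 3′ untranslated region of Ckb is not reported here), taking for each gene the principal, then the longest, coding transcript. Python 3.11.15, scipy 1.17.1, R 4.3.3 and edgeR 4.0.16 (TMM factors only) were used.

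The 10 transcripts and all lists were chosen with earlier results of these data known. Named are the 10, their isoforms, Myog, marker genes, the 2 most abundant genes and the highest and lowest YB-1 over IgG ratio (mean of at least 50) of each list, and the 3 genes nearest to Ckm, Mb and Pygm.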

Additional observations from a re-analysis of the deposited data

How the results depend on the processing

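The counts of transcripts below IgG by 2-fold or more, with YB-1 and with HuR, were 9 under each alternative run except the authors' moderated fold, with which the count for YB-1 was 7. These were other scalings (total reads, edgeR TMM factors, recentring on ribosomal protein genes or on all genes, total reads without the genes high in IgG), a minimum mean of 50 or none, a floor of 1 read and a fold of 1.5 or 4. The count higher in YB-1 than in IgG, which is Ckb alone, was 0 after recentring on ribosomal protein genes, 0 by a fold of 4 and 0 by the authors' moderated fold. The count lower in HuR than in YB-1 was 1 with no minimum mean, which lets in Phkg1, and 4 by a fold of 1.5, against 0. The median of the 8 in HuR over YB-1, -0.53, turned to 0.16 after recentring on ribosomal protein genes. Across the scalings the median for YB-1 over IgG ran from -7.04 to -5.68 and that for HuR over IgG from -5.01 to -4.33. No paired analysis was possible because each antibody has 1 library, and no library could be left out of a group for the same reason. Depth limits Ckmt2, Phkg1, Pvalb and Ppargc1a, which had 10 to 24 reads in the YB-1 library.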
